A study of Mus musculus with 2 samples.

Results

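T cells that carried few or no transcripts of the cytotoxic programme were examined in transcriptomes of single cells of mouse aorta, captured in droplets. They were chosen by measured values. A barcode (the tag of 1 droplet, taken as a cell) was kept at 800 or more UMIs (unique molecular identifiers, a count of distinct captured transcripts), 300 or more genes and at most 20% mitochondrial UMIs. It then needed 3 or more UMIs over the 5 T cell receptor complex genes Cd3e, Cd3d, Cd3g, Trac and Trbc2. It had to hold fewer than 3 UMIs over the 5 cytotoxic genes Nkg7, Gzma, Klre1, Ncr1 and Klrb1c, and fewer than 2 over the B cell genes Cd79a and Cd79b. Its complement genes C1qa, C1qb and C1qc, which mark macrophages, had to stay under 1000 CPM (counts scaled to a total of 1000000 UMIs). In all, 247 of 25326 barcodes met the rule. The Kif13b-/- library gave 69 of 7067 and the wild-type library 178 of 18259. The study has 1 library of aorta cells per genotype. The first comes from mice whose title gives a homozygous loss of Kif13b, a kinesin that moves cargo on microtubules, while the genotype label reads knock down, and the second comes from wild-type mice. The labels used here leave strain, age, sex, diet and the number of pooled animals unstated. With 1 library per genotype nothing was tested, and every 95% interval covers counting error only.

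As background, T cells recognise antigen through a receptor made of alpha and beta chains, or of gamma and delta chains, which signals through the CD3 chains. CD4 T cells help other immune cells, CD8 T cells mature into killers, and regulatory T cells, which depend on the transcription factor FOXP3, restrain immune responses. Most T cells are made in the thymus, where immature thymocytes rearrange their receptor genes with the RAG1 and RAG2 recombinase. In the aorta, T cells lie mainly in the adventitia and, in atherosclerosis, in the plaque.

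The members held 607072 UMIs in the Kif13b-/- library and 918830 UMIs in the wild-type library. The median member had 5971 UMIs and 2290 genes in the Kif13b-/- library, against 3819 UMIs and 1822.5 genes in the wild-type library. Median mitochondrial UMIs were 2.58% in Kif13b-/- and 2.49% in wild-type members. Over all barcodes within the quality limits the median was 5892 UMIs in the Kif13b-/- library and 2481 UMIs in the wild-type library, so depth differed between the libraries in every comparison of shares below. The libraries had 52 barcode sequences in common, and no member was present in both (0 members).

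T cells without cytotoxic genes made up nearly equal shares of the libraries. They were 0.976% of barcodes in the Kif13b-/- library (95% Clopper-Pearson interval 0.760 to 1.23%) and 0.975% in the wild-type library (0.837 to 1.13%), a ratio of 1.00 (0.747 to 1.33). The ratio depended on depth and on the quality limits. Among barcodes of 800 to 2000 UMIs, the members were 0.331% in the Kif13b-/- library and 0.399% in the wild-type library. Among those of 2000 to 5000 UMIs they were 0.850% (0.477 to 1.40%) in the Kif13b-/- library and 1.59% (1.29 to 1.94%) in the wild-type library. Among barcodes of 5000 to 10000 UMIs they were 2.03% (1.45 to 2.75%) in the Kif13b-/- library and 1.29% (0.896 to 1.80%) in the wild-type library, and above 10000 UMIs 0.472% in the Kif13b-/- library and 0.834% in the wild-type library. With every barcode thinned to 800 UMIs and at least 2 receptor UMIs required, the shares were 0.580% in the Kif13b-/- library and 0.641% in the wild-type library. With at most 10% mitochondrial UMIs the ratio was 1.34. For comparison, cytotoxic T and NK cells, with 3 or more UMIs of the 5 cytotoxic genes, were 0.439% of the Kif13b-/- and 0.537% of the wild-type library. B cells, with 3 or more Cd79a or Cd79b UMIs, were 0.637% of the Kif13b-/- and 0.323% of the wild-type library.

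The label was checked against the given markers. Of these, Cd3e, Cd3d and Trac are in the rule, so their levels are a description. Cd3e (chromosome 9, 44998740 to 45009627, minus strand of GRCm38) stood at 303 CPM in Kif13b-/- members and 304 CPM in wild-type members, and Cd3d at 336 CPM in Kif13b-/- and 255 CPM in wild-type members. Trac, the constant region of the alpha chain, stood at 264 CPM in Kif13b-/- and 215 CPM in wild-type members. Cd4 (chromosome 6, 124864692 to 124888221, minus strand), the co-receptor of helper T cells, and Lef1 (chromosome 3, 131110471 to 131224356, plus strand), a transcription factor of naive T cells, are outside the rule. Cd4 had 109 CPM in members and 2.19 CPM in all other barcodes of the Kif13b-/- library, and 59.9 CPM in members and 2.85 CPM in all other barcodes of the wild-type library. Lef1 had 98.8 CPM in members and 1.77 CPM in all other barcodes of the Kif13b-/- library, and 209 CPM in members and 1.91 CPM in all other barcodes of the wild-type library. Both markers were therefore raised in members of each library, but a Cd4 UMI was seen in 36.2% of Kif13b-/- members and 20.8% of wild-type members. Summed over members, the markers fit the label of T cells, but not every member did. The 6 Kif13b-/- members with 3 receptor UMIs had 0 Cd4 and 0 Lef1 UMIs. The largest group of members in the clustering below, 62 of 247, had 0 of the 5 T cell markers raised over the other members. It had all 6 fibroblast and all 5 smooth muscle markers raised. Cd8 and gamma delta genes were also found, so the members were not CD4 T cells alone.

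**Figure D1:**
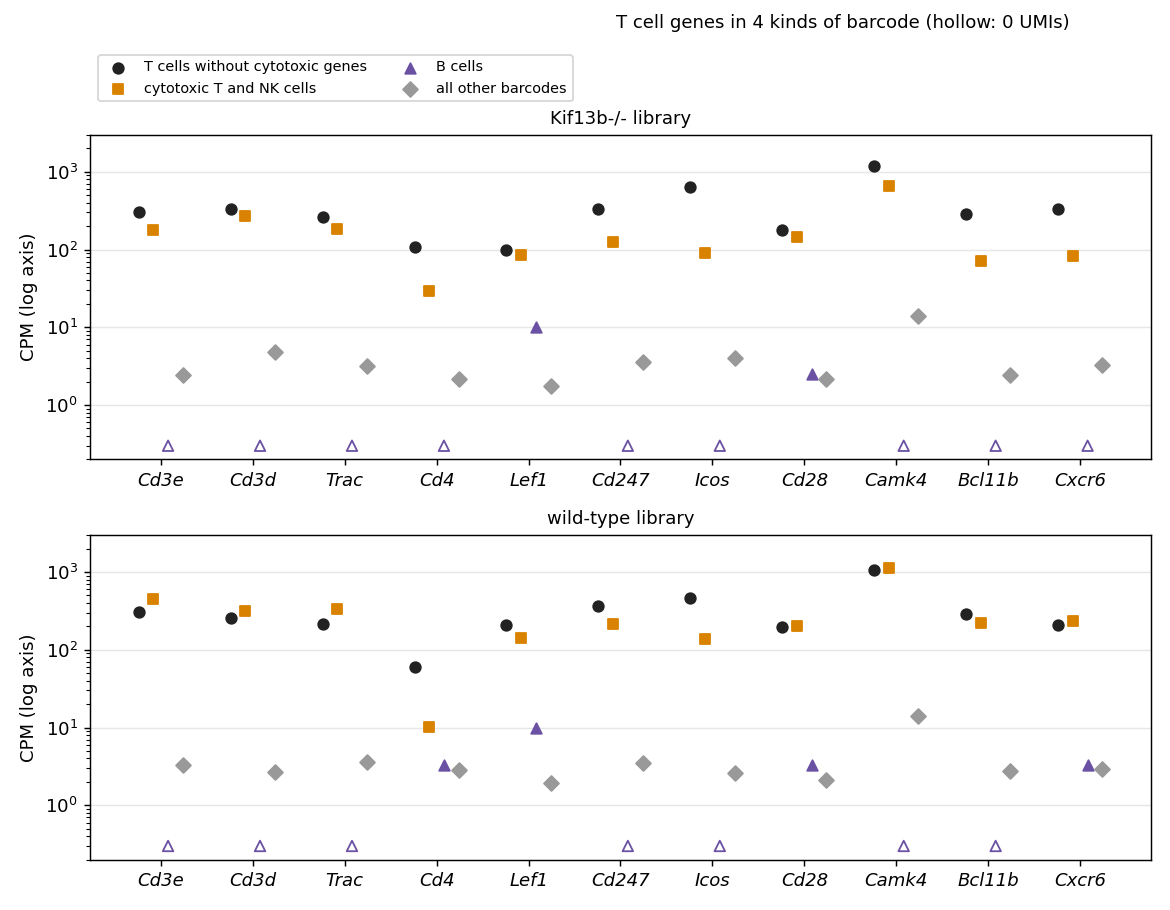
Levels of 11 T cell genes (CPM, log axis) in members, cytotoxic T and NK cells, B cells and all other barcodes, with the Kif13b-/- library above and the wild-type library below. Hollow symbols mark genes with 0 UMIs. Cd4 stands at 109 CPM in Kif13b-/- and 59.9 CPM in wild-type members, and most T cell genes have 0 UMIs in B cells.

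Genes outside the rule were high in members too, given as a description since the members were chosen from the same cells. The 12 genes with the highest ratios of members over all other barcodes in both libraries included Cdh10, Icos, Scart1, Tnfrsf4, Il23r, Bcl11b, Cd247, Il18r1, Cd28, Camk4 and Cxcr6. Icos, a costimulatory receptor, was 158 times as high in members as in other barcodes of the Kif13b-/- library and 177 times as high in the wild-type library. Bcl11b, a transcription factor that fixes T cell identity, was 120.01 times as high in the Kif13b-/- and 104 times in the wild-type library. An Icos UMI was present in 65.2% of Kif13b-/- members and 40.4% of wild-type members, and in 0% of B cells of either library, at median B cell depths of 7307 UMIs in the Kif13b-/- and 3770 UMIs in the wild-type library. Just inside the receptor threshold lay 6 Kif13b-/- and 38 wild-type members with 3 UMIs, and just outside it 29 Kif13b-/- and 74 wild-type barcodes with 2. At 3 receptor UMIs Icos had 0 UMIs in the Kif13b-/- library and stood at 84.2 CPM in the wild-type library, and at 2 receptor UMIs it stood at 78.8 CPM in the Kif13b-/- and 44.8 CPM in the wild-type library. The 6 Kif13b-/- members at the threshold had 0 Icos UMIs and 1617 Col3a1 UMIs between them, Col3a1 being a collagen of fibroblasts.

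RNA of other aortic cells was present in some members. Markers of smooth muscle cells, fibroblasts, chondrocytes, endothelial cells, macrophages, adipocytes and Schwann cells made up a median of 0.0699% of the UMIs of Kif13b-/- members and 0.131% of wild-type members. Over 1% was reached in 12 of 69 Kif13b-/- members (17.4%) and 55 of 178 wild-type members (30.9%). The 6 fibroblast markers summed to 13733 CPM in Kif13b-/- members and 6253 CPM in wild-type members, and the 5 chondrocyte markers to 275 CPM in Kif13b-/- and 876 CPM in wild-type members. The 6 macrophage markers were at 124 CPM in Kif13b-/- and 233 CPM in wild-type members. Neutrophil markers had 0 UMIs in Kif13b-/- and 3 in wild-type members, and the B cell gene Ms4a1 was at 0 in both. For results below that such members moved, the value without them is given beside the result or with the alternatives. Beyond that, the part of such RNA and of depth in these results was not tested.

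Kif13b itself (chromosome 14, 64647265 to 64809617, plus strand) was detected in the members of both libraries. It stood at 92.2 CPM in Kif13b-/- members (56 UMIs in 23 barcodes, 21 of them in 1 barcode) and 115 CPM in wild-type members (106 UMIs in 57 barcodes). The log2 ratio of Kif13b-/- over wild-type was -0.32 (-0.82 to 0.16). Without members over 1% RNA of other cells it was 0.13. The altered stretch of the gene is unstated in the labels used here, so 3' tags may lie outside it and check nothing about the genotype label.

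The members divided by co-receptor as follows. A Cd4 UMI without Cd8a or Cd8b1 was seen in 23 Kif13b-/- members (33.3%, 22.4 to 45.7%) and 30 wild-type members (16.9%, 11.7 to 23.2%). Thinned to 800 UMIs, these shares were 4.35% (3 barcodes, 0.906 to 12.2%) in Kif13b-/- and 5.62% (10 barcodes, 2.73 to 10.1%) in wild-type members. Cd8a or Cd8b1, the chains of the killer cell co-receptor, without Cd4 were seen in 10 Kif13b-/- members (14.5%) and 28 wild-type members (15.7%). Both co-receptors were seen in 2 Kif13b-/- (2.90%) and 7 wild-type members (3.93%), and neither in 34 Kif13b-/- (49.3%) and 113 wild-type members (63.5%). In B cells a Cd4 UMI was seen in 0% of the Kif13b-/- library and 1.69% of the wild-type library. As a level, Cd4 was higher in Kif13b-/- members, with a log2 ratio of 0.86 (0.32 to 1.40), and the sign held in 13 of 14 other settings. Thinned to 800 UMIs the ratio was -0.42. That value rests on few UMIs, since only 3 Kif13b-/- and 13 wild-type members kept a Cd4 UMI. Cd8a stood at 11.53 CPM (7 UMIs) in Kif13b-/- members and 39.2 CPM (36 UMIs) in wild-type members, and Cd8b1 at 29.7 CPM in Kif13b-/- and 47.9 CPM in wild-type members.

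**Figure D2:**
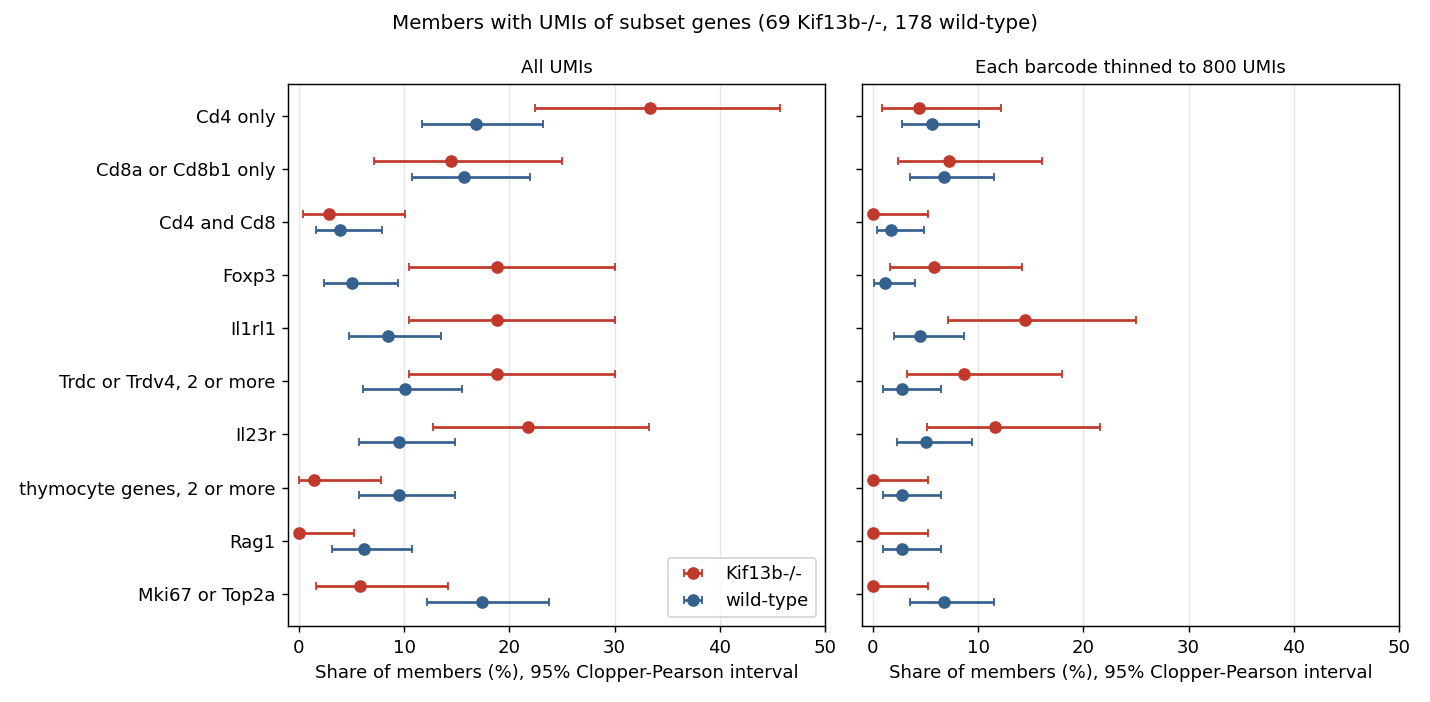
Shares of members (%) with UMIs of subset genes, Kif13b-/- above wild-type in each pair, with all UMIs (left) and each barcode thinned to 800 UMIs (right); bars are 95% Clopper-Pearson intervals. The Foxp3 share is 18.8% in Kif13b-/- members and 5.06% in wild-type members, and the thinned shares with Cd4 and no Cd8 are 4.35% in Kif13b-/- and 5.62% in wild-type members.

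Regulatory T cell genes were higher in Kif13b-/- members. A UMI of Foxp3 (chromosome X, 7573644 to 7595245, plus strand) was seen in 13 of 69 Kif13b-/- members (18.8%, 10.4 to 30.1%) and 9 of 178 wild-type members (5.06%, 2.34 to 9.38%). Thinned to 800 UMIs the shares were 5.80% (1.60 to 14.2%) in Kif13b-/- and 1.12% (0.136 to 4.00%) in wild-type members. No B cell of either library had one (0%). Foxp3 stood at 51.1 CPM in Kif13b-/- members and 21.8 CPM in wild-type members, a log2 ratio of 1.22 (0.37 to 2.12). Of 11 genes of the regulatory list with 20 or more UMIs over both libraries (called measured here), 10 were at least 1.5-fold higher in Kif13b-/- members and 0 lower, with a median log2 ratio of 1.22. Over all 8409 measured genes 13.8% were as much higher and 16.6% as much lower, with a median of -0.06. These shares are the background for each list count below. The remaining gene, Il2ra, the interleukin 2 receptor alpha chain, stood at 211 CPM in Kif13b-/- and 205 CPM in wild-type members. Without members over 1% RNA of other cells the list's median was 1.60.

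Ikzf2 encodes Helios, a transcription factor of regulatory T cells. It stood at 1614 CPM in Kif13b-/- members and 931 CPM in wild-type members, a log2 ratio of 0.79 (0.66 to 0.93). Tnfrsf9 and Tnfrsf4, costimulatory receptors of activated T cells, were both higher. Tnfrsf9 stood at 550.2 CPM in Kif13b-/- and 178.5 CPM in wild-type members, a log2 ratio of 1.62 (1.35 to 1.90). Tnfrsf4 stood at 301 CPM in Kif13b-/- and 66.4 CPM in wild-type members, a log2 ratio of 2.18 (1.76 to 2.63). Ctla4, an inhibitory receptor, stood at 199 CPM (121 UMIs in 33 barcodes) in Kif13b-/- members and 66.4 CPM (61 UMIs in 31 barcodes) in wild-type members. Il10, an anti-inflammatory cytokine, had 41 UMIs in 10 Kif13b-/- members, 22 of them in 1 barcode, and 3 UMIs in 2 wild-type members. Il1rl1 (chromosome 1, 40429570 to 40465415, plus strand), the receptor for interleukin 33, stood at 269 CPM in Kif13b-/- members and 106 CPM in wild-type members, a log2 ratio of 1.34 (0.98 to 1.72).

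Most Foxp3 barcodes also had Il1rl1. Of them, 11 of 13 in the Kif13b-/- library and 7 of 9 in the wild-type library had it, while 2 Kif13b-/- and 8 wild-type members had Il1rl1 without Foxp3. The other members held 13 Il1rl1 UMIs in the Kif13b-/- library and 61 in the wild-type library. Inside the Foxp3 barcodes Il1rl1 stood at 1781 CPM in the Kif13b-/- library (150 UMIs) and 740 CPM in the wild-type library (36 UMIs), with a log2 ratio at 1.25 (0.73 to 1.83). Tnfrsf4 there stood at 1722 CPM in the Kif13b-/- and 637 CPM in the wild-type library, with a log2 ratio at 1.42 (0.87 to 2.04). Other regulatory genes apart from Il10 had smaller ratios there, -0.17 (-1.02 to 0.73) for Foxp3 and 0.35 (-0.32 to 1.09) for Ctla4. The intervals also held 0 for Tnfrsf18 at 0.56 (-0.15 to 1.36), Ikzf4 at 0.58 (-0.31 to 1.61) and Capg at 0.96 (-0.43 to 2.84). They left out 0 for Ikzf2 at 0.37 (0.18 to 0.56), Tnfrsf9 at 0.72 (0.34 to 1.12) and Il2ra at 0.71 (0.10 to 1.39). Il10 had 26 UMIs there in the Kif13b-/- and 0 in the wild-type library. Ikzf2 stood at 8988 CPM in Foxp3 barcodes and 427 CPM in the other members of the Kif13b-/- library, and at 6968 CPM and 593 CPM in those of the wild-type library. Klrg1, a receptor of effector T cells, stood at 226 CPM (19 UMIs) in Foxp3 barcodes and 0 CPM in the other members of the Kif13b-/- library, and at 144 CPM (7 UMIs) in Foxp3 barcodes and 6.90 CPM (6 UMIs) in the other members of the wild-type library. Tcf7, a transcription factor of naive T cells, had 0 UMIs in Foxp3 barcodes of either library. In these barcodes S100a4, a calcium-binding protein, was lower in the Kif13b-/- library, at 689 CPM against 1850.0 CPM in the wild-type library. By the median, Foxp3 barcodes held little RNA of other cells, 0.0502% in the Kif13b-/- and 0.0978% in the wild-type library. Over 1% was reached in 0 Kif13b-/- barcodes and 1 wild-type barcode. Summed over them, Acta2, smooth muscle actin, stood at 71.2 CPM in the Kif13b-/- and 719 CPM in the wild-type library. Col3a1 stood at 107 CPM in the Kif13b-/- and 617 CPM in the wild-type library. The part of such RNA in the S100a4 difference was not tested.

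Barcodes with gamma delta receptor genes formed a further group. Gamma delta receptor chains are encoded by the Trd and Trg genes. Trdc (chromosome 14, 54142851 to 54148868, plus strand) is the delta constant region and Trdv4 a delta variable segment. The Trd genes lie inside the Tra locus. At least 2 UMIs of Trdc and Trdv4 were seen in 13 Kif13b-/- members (18.8%, 10.4 to 30.1%) and 18 wild-type members (10.1%, 6.10 to 15.5%), and thinned in 8.70% (3.26 to 17.97%) of Kif13b-/- and 2.81% (0.918 to 6.43%) of wild-type members. Trdc stood at 221 CPM in Kif13b-/- members and 108 CPM in wild-type members, and Scart1, a scavenger receptor of gamma delta T cells, at 186 CPM in Kif13b-/- and 83.8 CPM in wild-type members. The log2 ratio was 1.03 (0.65 to 1.42) for Trdc and 1.15 (0.72 to 1.59) for Scart1. Trgc1, a gamma constant region, stood at 84.01 CPM in Kif13b-/- and 41.4 CPM in wild-type members, while Trgc2 stood at 8.24 CPM in Kif13b-/- and 26.1 CPM in wild-type members and Trgc4 at 4.94 CPM in Kif13b-/- and 21.8 CPM in wild-type members. Of 6 measured genes of the list 4 were higher and 2 lower in Kif13b-/- members, with a median log2 ratio of 1.03. Some gamma constant regions are close copies, so reads can be split between them. Of the barcodes with 2 or more Trdc and Trdv4 UMIs, 10 of 13 Kif13b-/- and 16 of 18 wild-type also had Trbc1 or Trbc2. A Trac UMI was seen in 5 of them in each library, so this gate did not exclude alpha or beta chain transcripts.

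After removal of 4 wild-type barcodes that also carried thymocyte genes, the gamma delta barcodes numbered 13 in the Kif13b-/- library and 14 in the wild-type library. Zbtb16, which encodes PLZF, a transcription factor of innate-like T cells, stood at 772 CPM in gamma delta barcodes and 25.4 CPM in the other members of the Kif13b-/- library, and at 723 CPM in gamma delta barcodes and 98.0 CPM in the others of the wild-type library. Il23r (chromosome 6, 67422932 to 67491855, minus strand), the receptor for interleukin 23 that marks interleukin 17-producing T cells, stood at 482 CPM in gamma delta barcodes and 19.1 CPM in the other members of the Kif13b-/- library and at 809 CPM in gamma delta barcodes and 46.0 CPM in the others of the wild-type library. It was present in 11 gamma delta barcodes of each library, out of 15 Kif13b-/- members (21.7%, 12.7 to 33.3%) and 17 wild-type members (9.55%, 5.66 to 14.9%) that had it. Blk, a kinase needed by these cells, stood at 423 CPM in gamma delta barcodes and 2.12 CPM in the other members of the Kif13b-/- library and at 604 CPM in gamma delta barcodes and 2.42 CPM in the others of the wild-type library. Cxcr6, a chemokine receptor of tissue T cells, stood at 972 CPM in gamma delta barcodes and 150.3 CPM in the other Kif13b-/- members, and at 981 CPM in gamma delta barcodes and 119 CPM in the other wild-type members. The cytokine Il17a itself had 4 UMIs over all Kif13b-/- members and 2 over all wild-type members, and Il17f and Il22 had 0. Cd4 had 0 UMIs in gamma delta barcodes of either library. Within these barcodes the log2 ratio between the libraries was 0.03 (-0.40 to 0.47) for Scart1 and 0.09 (-0.36 to 0.56) for Zbtb16. Il23r there had a log2 ratio of -0.74 (-1.25 to -0.25). Dcn, a fibroblast proteoglycan, stood in these barcodes at 3220 CPM in the Kif13b-/- and 6169 CPM in the wild-type library. Acta2 went the other way, at 2938 CPM in the Kif13b-/- and 895 CPM in the wild-type library. Col3a1 stood at 1640 CPM in the Kif13b-/- and 1316 CPM in the wild-type library. Over 1% RNA of other cells was reached in 2 Kif13b-/- and 3 wild-type gamma delta barcodes.

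**Figure D3:**
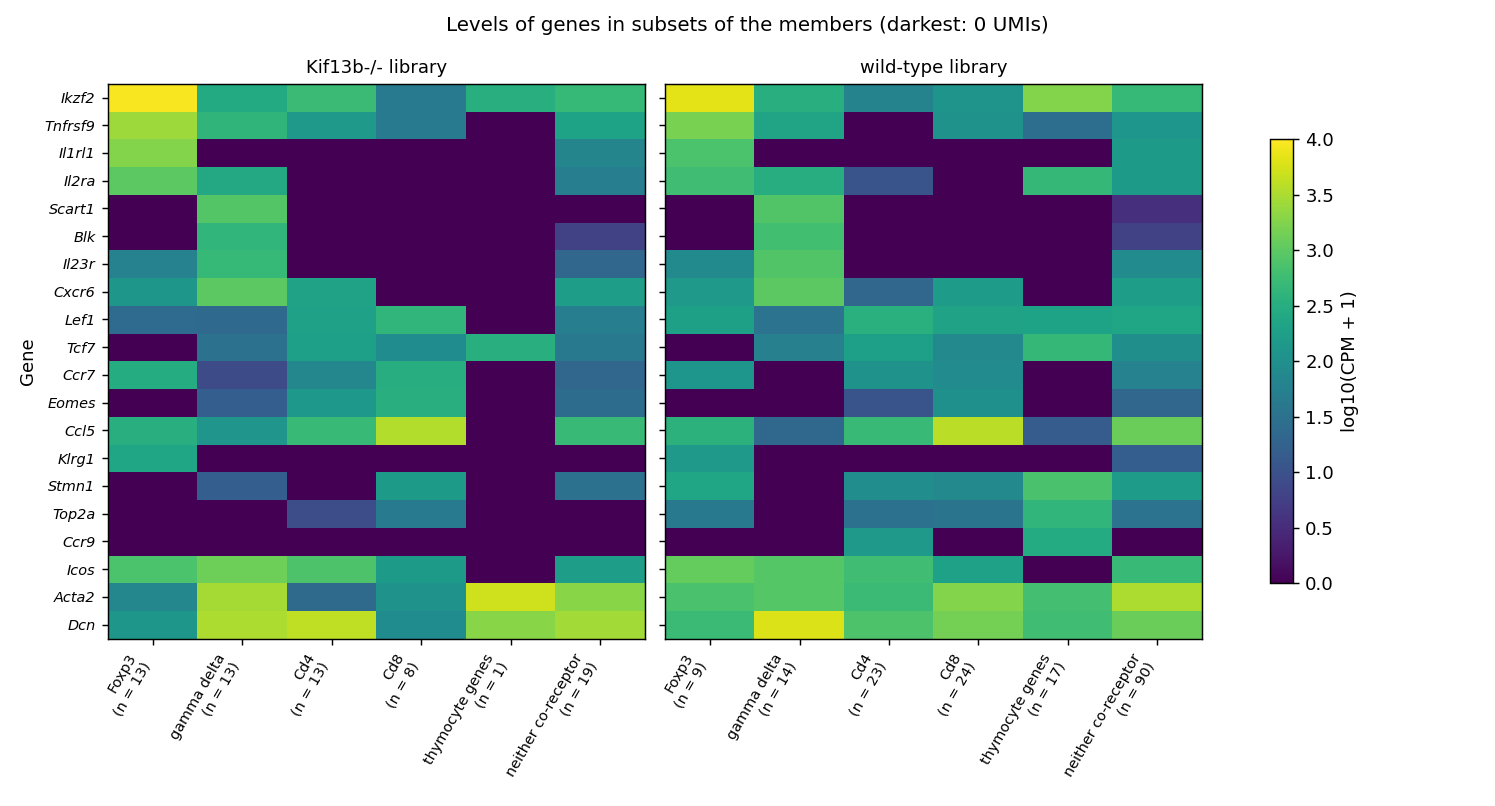
Levels of 20 genes as log10(CPM + 1) in 6 exclusive subsets of the members, with the Kif13b-/- library left and the wild-type library right; the number of barcodes stands under each column. Ikzf2 is brightest in Foxp3 barcodes (8988 CPM Kif13b-/-, 6968 CPM wild-type), Scart1 in gamma delta barcodes, Ccl5 in Cd8 barcodes, and the single Kif13b-/- barcode with thymocyte genes shows Acta2 and Dcn.

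Thymocyte genes were rare in Kif13b-/- members and more frequent in wild-type members. The 7 genes of the list were Rag1, Rag2, Ptcra, Dntt, Arpp21, Mns1 and Aqp11. Rag1 (chromosome 2, 101638282 to 101649501, minus strand), the recombinase subunit, had 0 UMIs in Kif13b-/- members and 38 UMIs in 11 wild-type members (41.4 CPM). Against a floor of 3 counts per library it was at least 8.37-fold lower in Kif13b-/- members. Dntt (chromosome 19, 41029275 to 41059525, plus strand), which adds bases at the joins of receptor segments, had 0 UMIs in Kif13b-/- members and 27 UMIs in 10 wild-type members, at least 5.95-fold lower. Arpp21, an RNA-binding protein, had 2 UMIs in 1 Kif13b-/- member and 89 UMIs in 19 wild-type members, and Aqp11, a water channel, had 0 UMIs in Kif13b-/- and 20 in wild-type members. Ptcra, the surrogate alpha chain, had 0 UMIs in Kif13b-/- and 4 in wild-type members, and Rag2 had 0 in both. All 4 measured genes of the list were lower in Kif13b-/- members. Their median log2 ratio was -2.82 with the 3 genes at 0 set to their bound. Rag1 was in 0 of 69 Kif13b-/- members, which allows a share of up to 4.35% by the floor of 3 counts and up to 5.21% by the Clopper-Pearson interval, and in 6.18% (3.12 to 10.8%) of wild-type members. In B cells of both libraries Rag1 was in 0%.

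The stretches of 150 bases before the transcription starts of Rag1 and Dntt are shown because their transcripts had 0 UMIs in Kif13b-/- members. Both are from RefSeq on GRCm38.p6 and run 5′ to 3′ on the gene's strand. Rag1 is chr2:101649533-101649682 on the minus strand and Dntt is chr19:41029125-41029274 on the plus strand. Capitals mark the E-box letters CANNTG, which read the same on both strands and are the letters bound by E proteins, transcription factors of lymphocyte development.
Rag1: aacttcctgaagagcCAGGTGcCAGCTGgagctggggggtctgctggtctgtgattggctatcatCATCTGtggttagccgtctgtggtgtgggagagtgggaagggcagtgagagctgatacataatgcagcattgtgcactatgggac
Dntt: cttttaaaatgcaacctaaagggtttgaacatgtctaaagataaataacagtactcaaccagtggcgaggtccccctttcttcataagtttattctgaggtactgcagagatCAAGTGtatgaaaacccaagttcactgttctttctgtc
Rag1 held 3 E-boxes in its window and Dntt 1. Of 32851 windows of the same length in the table, 47.7% held at least 1 and 3.72% held at least 3. All 7 genes of the list were matched, and 5 of them had an E-box in some window. These genes had 15 windows, some of them overlapping in Arpp21, so the share per single window is no background for the 5. A match describes the letters and no binding.

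Members with 2 or more UMIs of the thymocyte list numbered 1 in the Kif13b-/- library (1.45%, 0.0367 to 7.81%) and 17 in the wild-type library (9.55%, 5.66 to 14.9%). Thinned, the shares were 0% (0 to 5.21%) of Kif13b-/- and 2.81% (0.918 to 6.43%) of wild-type members. Of cytotoxic T and NK cells, 1 Kif13b-/- and 3 wild-type barcodes also had 2 or more such UMIs. In the 17 wild-type barcodes, 6 carried Cd4 together with Cd8a or Cd8b1, the pairing of double-positive thymocytes, out of 7 such wild-type members in all. Trbc1, a beta constant region, stood at 945 CPM in them and 263 CPM in the other wild-type members, whereas Trac stood at 60.7 CPM in them and 245 CPM in the others. Ccr9, a chemokine receptor of thymocytes, stood at 283 CPM in them and 24.7 CPM in the others, and Tcf7 at 459 CPM in them and 93.4 CPM in the others. Icos, Cxcr6 and Ccr7 had 0 UMIs in them. They were deep, with a median of 8592 UMIs, and held 16.1% of all UMIs of wild-type members. Their median of RNA of other cells was 0.0931%. The single Kif13b-/- barcode had 3083 UMIs, of which 1.98% were such RNA, with Acta2, smooth muscle actin, at 16 UMIs.

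Proliferation genes were also lower in Kif13b-/- members. A UMI of Mki67 or Top2a, genes of dividing cells, was seen in 4 Kif13b-/- members (5.80%, 1.60 to 14.2%) and 31 wild-type members (17.4%, 12.2 to 23.8%), and thinned in 0% (0 to 5.21%) of Kif13b-/- and 6.74% (3.53 to 11.48%) of wild-type members. Top2a stood at 4.94 CPM (3 UMIs) in Kif13b-/- members and 93.6 CPM (86 UMIs) in wild-type members. Stmn1, a regulator of microtubules raised in cycling cells, stood at 28.0 CPM in Kif13b-/- and 215 CPM in wild-type members, a log2 ratio of -2.91 (-3.75 to -2.23). Of 8 measured genes of the list 7 were lower in Kif13b-/- members and 0 higher, with a median log2 ratio of -2.37 with genes at 0 set to their bound. Pcna, a sliding clamp of DNA replication, stood at 125 CPM in Kif13b-/- and 173 CPM in wild-type members. Of the 31 wild-type members with Mki67 or Top2a, 8 carried thymocyte genes and 23 did not. The fitted median of the list was -3.00, and -1.06 without members that carried thymocyte genes, where the log2 ratio of Stmn1 was -2.07.

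**Figure D4:**
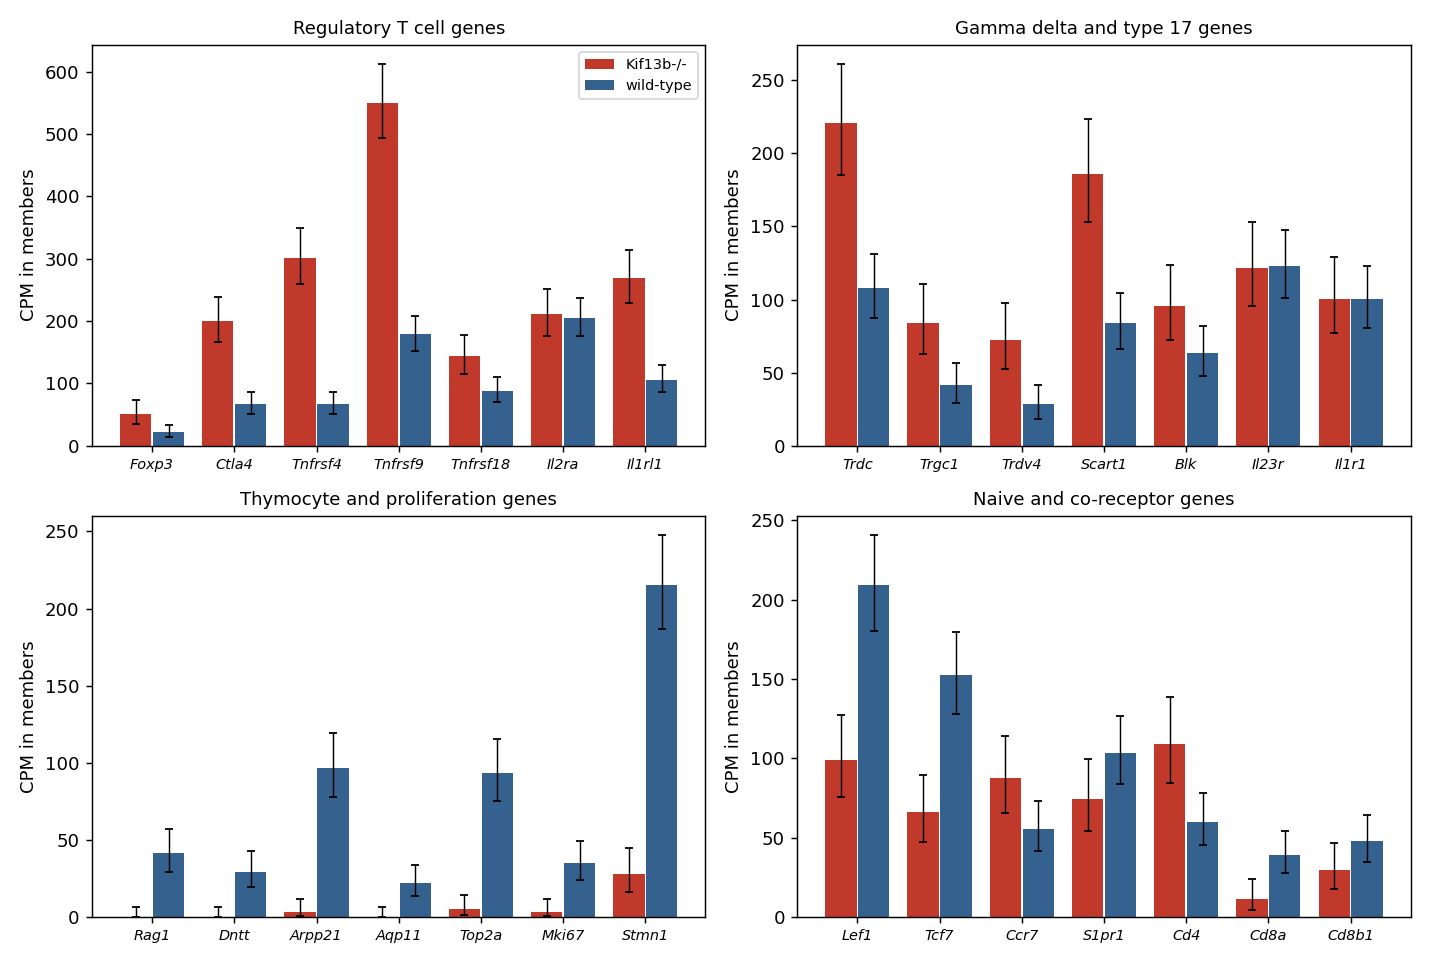
Levels (CPM) of 7 genes of each of 4 groups summed over members, Kif13b-/- bars left of wild-type bars, with exact 95% Poisson intervals that cover counting error only. Tnfrsf4 stands at 301 CPM in Kif13b-/- and 66.4 CPM in wild-type members and Trdc at 221 CPM in Kif13b-/- and 108 CPM in wild-type members, while Rag1 and Dntt are at 0 in Kif13b-/- members and Stmn1 stands at 28.0 CPM in Kif13b-/- and 215 CPM in wild-type members.

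Naive T cell genes were split. Lef1 and Tcf7 were lower in Kif13b-/- members, with log2 ratios of -1.07 (-1.52 to -0.65) for Lef1 and -1.20 (-1.75 to -0.69) for Tcf7, as was Satb1, a chromatin organiser, at 517 CPM in Kif13b-/- and 880.5 CPM in wild-type members. Of the wild-type Tcf7 UMIs, 68 lay in the 17 barcodes with thymocyte genes, and in the members without such genes Tcf7 stood at 64.6 CPM in the Kif13b-/- and 93.4 CPM in the wild-type library. Without those barcodes the log2 ratio of Lef1 was -1.07, and at matched depth it was -0.51. Ccr7, a receptor for homing to lymph nodes, stood at 87.3 CPM in Kif13b-/- members and 55.5 CPM in wild-type members, and Igfbp4 at 267 CPM in Kif13b-/- and 110 CPM in wild-type members, with 67 of 162 Kif13b-/- UMIs in 1 barcode. Foxp1, which holds T cells quiescent, stood at 721 CPM in Kif13b-/- and 894 CPM in wild-type members, and Bach2 at 664 CPM in Kif13b-/- and 793 CPM in wild-type members. Of 11 measured genes 2 were higher and 3 lower in Kif13b-/- members, with a median log2 ratio of -0.26. Over all measured genes 13.8% were higher and 16.6% lower. Without members over 1% RNA of other cells the median was -0.61.

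Barcodes with Cd4 but no Foxp3, gamma delta or thymocyte genes numbered 13 in the Kif13b-/- library and 23 in the wild-type library. In them S1pr1, the receptor for exit from lymphoid tissue, stood at 195 CPM, against 41.8 CPM in the other Kif13b-/- members, and at 260.5 CPM against 84.2 CPM in the wild-type library. Cxcr6 stood at 203 CPM in the Kif13b-/- Cd4 barcodes (26 UMIs in 7 barcodes) and 20.04 CPM in the wild-type Cd4 barcodes (2 UMIs). Barcodes with Cd8a or Cd8b1 but no Cd4, Foxp3, gamma delta or thymocyte genes numbered 8 in the Kif13b-/- and 24 in the wild-type library. Ccl5, a chemokine of memory and effector CD8 T cells, stood in them at 3484 CPM in the Kif13b-/- library and 3789 CPM in the wild-type library, against 381 CPM in the other Kif13b-/- and 728 CPM in the other wild-type members. Eomes, a transcription factor of such cells, stood in Cd8 barcodes at 327 CPM (15 UMIs) in the Kif13b-/- and 101 CPM (12 UMIs) in the wild-type library. Il2ra and Il23r had 0 UMIs in Cd8 barcodes of both libraries. Barcodes with neither co-receptor and none of the other gates were the most numerous class in both, 19 (27.5%) in the Kif13b-/- and 90 (50.6%) in the wild-type library. Their median depth was 6601 UMIs in the Kif13b-/- and 3322 UMIs in the wild-type library, and 8 of them in the Kif13b-/- and 40 in the wild-type library were over 1% RNA of other cells. Acta2 stood in them at 1944 CPM in the Kif13b-/- and 3191 CPM in the wild-type library.

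Over all genes, 193 of 5221 genes with 50 or more UMIs were at least 2-fold higher in Kif13b-/- members (3.7%) and 234 were at least 2-fold lower (4.48%). Eligible genes met the limits given with the processing. The 12 highest of 390 eligible genes were Fndc1, Ifng, Myo3b, Depdc5, Mfap5, Col12a1, Ltbp2, Tnfrsf4, Frmd5, Tnfsf8, Timp3 and Pcolce. Of these, Fndc1, Mfap5, Col12a1, Ltbp2, Timp3 and Pcolce encode matrix or secreted proteins of stromal cells. Col12a1 had 92 UMIs in 5 Kif13b-/- members, 73 of them in 1 barcode, against 28 UMIs in 17 wild-type members. Without members over 1% RNA of other cells its log2 ratio was -3.18, that of Timp3 was -3.00, that of Mfap5 was -2.44 and that of Fndc1 was -0.49. Depdc5 had 73 of its 90 Kif13b-/- UMIs in 1 barcode. Ifng, the type 1 cytokine, had 54 of its 64 Kif13b-/- UMIs in 1 barcode, and 12 UMIs in 5 wild-type members. Tnfsf8, the ligand of CD30, was spread more widely, with 122 UMIs in 18 Kif13b-/- members (201 CPM) and 46 UMIs in 13 wild-type members (50.1 CPM), a log2 ratio of 1.995 (1.505 to 2.53). Frmd5, a cytoskeletal adaptor, had 83 UMIs in 16 Kif13b-/- and 31 UMIs in 8 wild-type members, a log2 ratio of 2.004 (1.41 to 2.66). Myo3b, an unconventional myosin, had 76 UMIs in 14 Kif13b-/- members, 34 of them in 1 barcode, and 16 UMIs in 10 wild-type members.

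The 12 lowest of 470 eligible genes were Stmn1, Myb, Aff3, Il12rb2, St8sia1, Nsd2, Hmgn2, Hmgb2, Igfbp5, Ezh2, Anp32e and Lbr. Several act in chromatin, among them Hmgb2 and Hmgn2, which bind DNA and nucleosomes, and Ezh2, which methylates histone H3. Hmgb2 stood at 211 CPM in Kif13b-/- members (128 UMIs in 53 barcodes) and 778 CPM in wild-type members (715 UMIs in 135 barcodes), a log2 ratio of -1.88 (-2.17 to -1.61). Myb, a transcription factor of immature blood and T cells, stood at 29.7 CPM (18 UMIs, 12 of them in 1 barcode) in Kif13b-/- and 201 CPM (185 UMIs in 43 barcodes) in wild-type members, a log2 ratio of -2.73 (-3.55 to -2.06). Il12rb2, a chain of the interleukin 12 receptor, stood at 34.6 CPM in Kif13b-/- and 168 CPM in wild-type members, with 56 of 154 wild-type UMIs in 1 barcode. Igfbp5 had 248 of its 336 wild-type UMIs in 1 barcode, and its log2 ratio was 1.37 with at least 5 receptor UMIs required. Ezh2 stood at 42.8 CPM in Kif13b-/- and 138 CPM in wild-type members, a log2 ratio of -1.67 (-2.36 to -1.07). Without members that carried thymocyte genes the log2 ratio was -1.64 for Myb, -0.93 for Aff3, -1.32 for Il12rb2 and -1.35 for Hmgb2, and of 4813 genes tested 146 were at least 2-fold higher and 157 at least 2-fold lower.

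Receptor signalling genes were mostly level between the libraries, as were 5847 of all 8409 measured genes. Over all measured genes 13.8% were at least 1.5-fold higher and 16.6% as much lower. List counts near these shares show nothing particular to a list. Of 20 measured, 2 were at least 1.5-fold higher (Zap70 and Sh2d1a) and 3 lower (Prkcq, Plcg1 and Skap1) in Kif13b-/- members, with a median log2 ratio of -0.22. Ptprc, the CD45 phosphatase, stood at 609 CPM in Kif13b-/- and 761 CPM in wild-type members. Of 12 co-receptor and costimulation genes 2 were higher (Cd4 and Cd2) and 2 lower (Cd8a and Cd8b1), with a median of 0.41, and Icos stood at 639 CPM in Kif13b-/- and 466 CPM in wild-type members. Of 5 measured type 2 genes 3 were higher and 1 lower, with a median of 0.83, with Rora, a transcription factor of type 2 and regulatory cells, at 1352 CPM in Kif13b-/- and 760 CPM in wild-type members. Il5, a type 2 cytokine, had all 55 of its wild-type UMIs in 1 barcode and 4 UMIs in 1 Kif13b-/- barcode. The 7 measured type 17 genes had a median of 0.54 and 3 were higher (Ccr6, Maf and Blk). All Ccr6 UMIs, 19 in Kif13b-/- and 5 in wild-type members, lay in Foxp3 barcodes, while Il23r was level at 122 CPM in Kif13b-/- and 123 CPM in wild-type members.

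Of 8 inhibitory receptor genes 4 were higher and 2 lower, with a median of 0.67, against 13.8% higher and 16.6% lower over all measured genes. Pdcd1, the PD-1 receptor, stood at 212 CPM in Kif13b-/- and 101 CPM in wild-type members, and Tox, a factor of chronically stimulated T cells, at 944 CPM in Kif13b-/- and 514 CPM in wild-type members. Entpd1, the CD39 ectoenzyme, was lower, at 26.4 CPM in Kif13b-/- and 70.7 CPM in wild-type members. Of 17 chemokine receptor and adhesion genes 9 were higher and 1, Ccr9, was lower, with a median of 0.65. Ccr2, which draws cells to inflamed tissue, stood at 127 CPM in Kif13b-/- and 69.7 CPM in wild-type members. Type 1 genes were split, 4 higher and 3 lower of 8, with Stat4 at 537 CPM in Kif13b-/- and 335 CPM in wild-type members and Ccl5 at 616 CPM in Kif13b-/- and 1124 CPM in wild-type members. T cell cytokines had 5 higher and 1 lower of 10, with a median of 0.49. Tnf, which was lower, had 74 of its 105 wild-type UMIs in 1 barcode. Of 13 cytotoxic granule genes outside the rule 3 were higher and 8 lower, with a median of -1.05. With 0 UMIs of the cytotoxic genes required the median was 0.49, and without members over 1% RNA of other cells it was -0.29. Ccl4 had 107 of its 187 wild-type UMIs in 1 barcode.

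Immediate early genes, which rise within minutes of stimulation or cell handling, were higher in Kif13b-/- members in 8 of 12 and lower in 0, with a median of 0.71. Fos stood at 1105 CPM in Kif13b-/- and 537 CPM in wild-type members, with 229 of 671 Kif13b-/- UMIs in 1 barcode, and Egr1 at 750 CPM in Kif13b-/- and 271 CPM in wild-type members. Without members over 1% RNA of other cells the median was 0.16. Heat shock genes had 3 higher and 0 lower of 8, with a median of 0.46, and -0.26 without those members. The counts in this paragraph stand against 13.8% higher and 16.6% lower over all measured genes. Of 13 memory and residence genes 2 were higher and 1 lower (median 0.27), of 16 cytokine receptors 2 were higher and 3 lower (0.05), and of 11 interferon response genes 4 were higher and 1 lower (0.31). Of 11 class I genes 2 were higher and 1 lower (0.30), of 11 glycolysis genes 1 was higher and 0 lower (0.17), of 14 survival genes 1 was higher and 3 lower (-0.07), and of 13 mitochondrial genes 1 was higher and 0 lower (0.20, and -0.20 without members over 1% RNA of other cells).

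**Figure D5:**
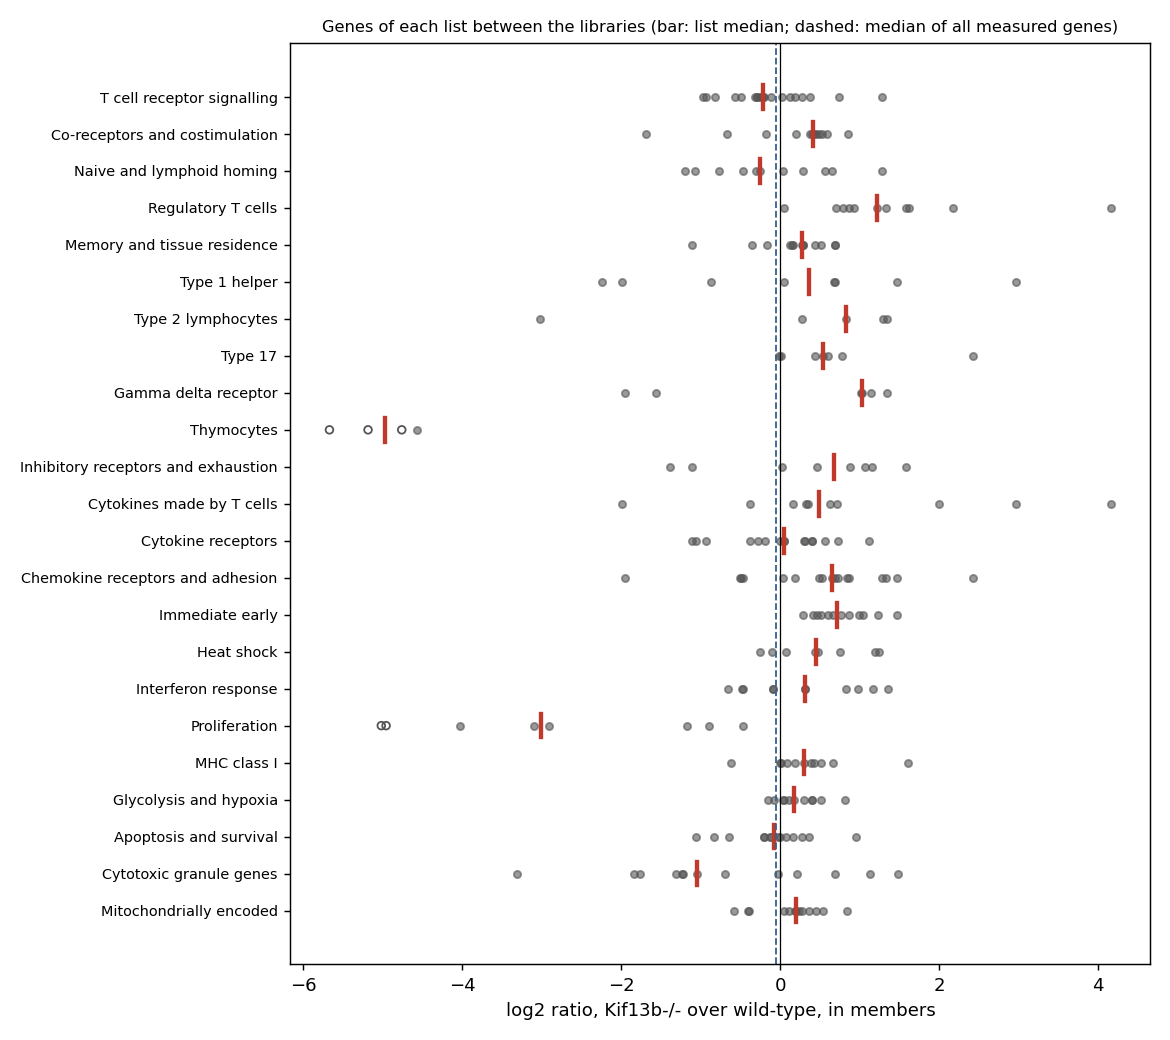
Log2 ratio of Kif13b-/- over wild-type for each measured gene of 23 lists in members (dots), with the list median (bar); hollow dots had 0 UMIs in Kif13b-/- members and their position depends on the prior count. The regulatory list has its median at 1.22 and the gamma delta list at 1.03, while thymocyte and proliferation genes lie on the negative side.

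Set against cytotoxic T and NK cells within each library, 109 of 3675 genes were at least 2-fold higher in members of both libraries (2.97%) and 38 were at least 2-fold lower (1.03%). Several of the highest belong to the gamma delta and Foxp3 barcodes. Il1rl1 had 163 UMIs in Kif13b-/- members and 97 in wild-type members and 0 in the cytotoxic cells of either library, at least 36.5-fold higher in the Kif13b-/- and 13.9-fold in the wild-type library, against the floor of 3 counts. Il23r was at least 16.6-fold higher in the Kif13b-/- and 16.3-fold in the wild-type library. The bounds for Scart1 were 25.3-fold in the Kif13b-/- and 11.1-fold in the wild-type library, and for Cdh10, a cadherin, 12.3-fold in the Kif13b-/- and 10.9-fold in the wild-type library. Igf1r, the receptor for insulin-like growth factor 1, was 6.17 times as high in the Kif13b-/- library and 8.42 times in the wild-type library, and Il2ra 5.23 times in the Kif13b-/- and 4.17 times in the wild-type library. Also among the 12 highest were Blk and Il6, and the stromal genes Tnfaip6, Col14a1, Igfbp5 and Fmod. The 12 lowest included Irf8, Klrc1, Klrd1, Klrk1, Ctsw, Ccl5, Cd86, Gzmk, Serpinb6b, Abr and Litaf. Klrd1, Klrc1 and Klrk1 encode receptors of NK and killer cells. Klrd1 stood at 14.8 CPM in members and 120 CPM in cytotoxic cells of the Kif13b-/- library, and at 35.9 CPM in members and 300.2 CPM in cytotoxic cells of the wild-type library. Irf8, an interferon regulatory factor, stood at 4.94 CPM in members and 184 CPM in cytotoxic cells of the Kif13b-/- library, and at 11.97 CPM and 103 CPM in those of the wild-type library. The rule separates these cells by genes that move with many of these, so these ratios describe the split.

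Clustering all 247 members together gave 7 groups, which are described over both libraries since the genes that define them differed between the libraries. A regulatory T cell-like group of 27 members held 20 of the Foxp3 barcodes and had all 6 regulatory markers raised at least 2-fold over the other members. A gamma delta and type 17-like group of 26 held 21 of the gamma delta barcodes. A naive-like group of 59 had 4 of 6 markers raised, Lef1, Ccr7 and S1pr1 among them. A group of 33 had among its leading genes Klrc2, Klrc1, Eomes, Gzmk and Ccl5, genes of NK and killer T cells, and was given no name. It had all 4 CD8 T cell markers raised, and Nkg7, a cytotoxic gene of the rule, was another, seen in 23 of the 33. A thymocyte-like group of 22 held 14 of the thymocyte-gene barcodes. The largest group, 62 members (25.1%), was led by Pdgfd, Loxl1 and Mmp2 and had all 6 fibroblast and all 5 smooth muscle markers raised, so it was given no T cell name. Its members held medians of 2.90% RNA of other cells in the Kif13b-/- library and 2.36% in the wild-type library. Its 12 Kif13b-/- barcodes had a median of 17539.5 UMIs and its 50 wild-type barcodes one of 3945.5 UMIs. Over all members the medians were 5971 UMIs in the Kif13b-/- and 3819 UMIs in the wild-type library. Deep barcodes weigh more in the summed CPM. A last group of 18 had a median of 1639.5 UMIs and no name; all of it was wild-type, so it cannot be told apart from its library.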

How the data were processed

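Aorta cells of each genotype were captured in droplets with 3' chemistry and sequenced, per the labels' protocols. The deposited UMI counts per gene and barcode were made by the authors with Cell Ranger 8.0.1, per the file headers, against mm10, per the submitters' processing notes. The deposited matrices hold 7766 Kif13b-/- and 21126 wild-type barcodes, against about 6000 cells loaded per channel and 3000 aimed at, per the labels' protocols. Filters before deposit are not known. From these counts the rule in the opening was applied, UMIs were summed over members within each library and divided by their total to give CPM. The log2 ratio of Kif13b-/- over wild-type added 0.5 to each count. Intervals are exact Poisson, exact for a ratio of 2 counts, or Clopper-Pearson at 95%, and a floor of 3 counts gives bounds. They cover counting error only. Genes named between libraries were the 12 highest and 12 lowest log2 ratios among eligible genes. Eligible genes had 50 or more UMIs, a minimum CPM in the higher library and a log2 ratio interval that left out 0. Genes over 3 times as high in all other barcodes were not eligible. Against cytotoxic cells the 12 highest and 12 lowest past 2-fold in both libraries were named, and against all other barcodes the 12 highest. All 3 comparisons left out genes of the rule, sex-linked, mitochondrial, ribosomal protein, haemoglobin, immunoglobulin, T cell receptor segment, Gm and Rik genes. Other named genes come from the lists or were chosen with their values known. The members and lists were chosen with earlier results of these data known. Gene positions are those of GENCODE M21. Thinning drew 800 UMIs per barcode (seed 1). Clusters came from Leiden at resolution 0.6 in scanpy 1.11.5 on Python 3.11.15. Doublets were not removed in the values given: Scrublet's automatic threshold marked 1 Kif13b-/- and 0 wild-type barcodes and had not worked, so 400 Kif13b-/- and 2667 wild-type barcodes of the highest scores were left out as an alternative. edgeR 4.0.16 was used for scaling factors in another alternative. Some genes named by these rules are not reported here. The scripts were tested on simulated data.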

Additional observations from a re-analysis of the deposited data

Results flagged for a closer look

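Members and cytotoxic T and NK cells differed in opposite directions in the 2 libraries for 30 of 3675 genes, each at least 2-fold apart in both. In the Kif13b-/- library 3 of them were higher and 27 lower in members than in cytotoxic T and NK cells. None of these differences was tested, as each genotype has 1 library. The log2 ratio of members over cytotoxic T and NK cells for Depdc5 was 1.72 in the Kif13b-/- library and -1.05 in the wild-type library. In the Kif13b-/- members, 73 of the 90 Depdc5 UMIs lay in 1 barcode. For H2-T23, a class Ib gene, it was 1.06 in the Kif13b-/- library and -1.21 in the wild-type library. For the cartilage genes Acan and Col2a1 the direction was the other way. Acan had -1.49 in the Kif13b-/- library and 2.69 in the wild-type library, and Col2a1 had -4.97 in the Kif13b-/- library and 3.75 in the wild-type library. The part of RNA of other cells in these values was not tested.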

How the results depend on the processing

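Of 18 settings, 12 were planned and 6 were chosen after seeing the data. Over 27 named results, 303 of 378 values stayed within counting error, 64 moved and 11 reversed. Of 294 medians of 23 lists, 182 stayed within counting error, 111 moved and 1 reversed. Reversed means a change of sign of a log2 ratio whose interval left out 0, or of a median past 1.5-fold. Below that, the sign also changed for Kif13b (0.13 without members over 1% RNA of other cells) and for the medians of receptor signalling, heat shock, survival and mitochondrial genes (same sign in 10, 11, 10 and 9 of 13 settings). The ratio of shares, 1.00, was 1.34 with at most 10% mitochondrial UMIs and 0.704 when barcodes were thinned before the limits and 1 receptor UMI was required. Thinned, Cd4 without Cd8 was in 4.35% of Kif13b-/- and 5.62% of wild-type members. Genes 2-fold higher numbered 22 thinned and 2558 with no minimum of UMIs, against 193. Genes 2-fold lower numbered 26 thinned, 366 with equal weight per barcode and 2130 with no minimum, against 234. TMM scaling gave 212 higher and 214 lower. Genes higher in members than in cytotoxic cells, 109, numbered 57 with 5 receptor UMIs, 4 thinned, 59 with equal weight, 904 with no minimum and 65 without members over 1% RNA of other cells. Genes lower, 38, numbered 24, 1, 583 and 76 under 5 receptor UMIs, thinning, no minimum and the 1% limit. Lists with a median past 1.5-fold numbered 5 in place of 9 without members that carried thymocyte genes. Reversed log2 ratios were -0.42 for Cd4 and -0.22 for Pcolce thinned. Without members over 1% RNA of other cells they were -0.49 for Fndc1, -0.24 for Depdc5, -2.44 for Mfap5, -3.18 for Col12a1 and -3.00 for Timp3. With a 5% limit they were -0.011 for Depdc5 and -0.79 for Mfap5. With 5 receptor UMIs they were -1.27 for Mfap5 and 1.37 for Igfbp5. The cytotoxic granule list had a median of 0.49 with 0 cytotoxic UMIs. Thinning leaves few UMIs and a missing minimum admits genes of few UMIs; of the other changes the cause was not tested. No paired analysis was possible because each genotype has 1 library. Genotype, animals and library preparation cannot be told apart. Groups of 13 barcodes or fewer, and genes with most UMIs in 1 barcode, rest on few cells. The wild-type library had fewer UMIs per barcode.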
